A study of Mus musculus with 12 samples.

Results

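The genes described here are 10 imprinted genes that act on growth: H19, IGF2, DLK1, MEG3, PEG3, MEST, NDN, GRB10, SNRPN and CDKN1C. They were taken by symbol from a table that lists 13956 genes in all. All 10 were listed above the lesion and 8 of 10 below it, where GRB10 and SNRPN had no entry. The list was drawn up with earlier results of these data known, H19 among them, so the members were in part chosen by their measured values in the comparison of genotypes below the lesion, and those values are a description.

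The RNA came from the spinal cord of male mice that carry human ApoE4, and it was sequenced in 12 libraries. Every mouse received a contusion at the level of thoracic vertebra 9 at 4 months of age, and tissue was taken 14 days later from just above (rostral) and just below (caudal) the lesion epicenter. At each site, 3 libraries were labelled as homozygous for synaptojanin 1 (2 normal alleles, synj1+/+) and 3 as heterozygous (an inactive allele beside a normal allele, synj1+/-), which makes 4 groups of 3 libraries, called homozygous-labelled and heterozygous-labelled in what follows. All 4 groups were injured and expressed ApoE4, so no uninjured cord enters these comparisons. The deposited table gives a single value per gene and group that combines the 3 libraries. The spread between mice and the depth of each library therefore cannot be computed from these values. The test columns that the authors deposited beside them were not used, so no difference below carries an error or a p-value.

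Imprinted genes are expressed mainly from the allele of a single parent. Many of the genes expressed from the paternal allele favor growth, as does IGF2, the insulin-like growth factor of fetal tissue, and many of those expressed from the maternal allele restrain it, as does the cyclin-dependent kinase inhibitor CDKN1C. H19 is a maternally expressed non-coding RNA that shares enhancers with IGF2. In tissues that imprint IGF2, the insulator protein CTCF, bound between H19 and IGF2 on the maternal chromosome, keeps that copy of IGF2 silent. Whether IGF2 was expressed from a single allele in this tissue was not measured. In the adult central nervous system IGF2 is made chiefly by the meninges, the choroid plexus and vessels, whereas several other members of the group, MEG3 and PEG3 among them, are strongly expressed in neurons.

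Values are given as FPKM, a read count scaled for transcript length and for the upper quartile of the library group, after taking off the 1 that the authors added. A log2 ratio is the heterozygous-labelled group over the homozygous-labelled group on the scale of FPKM plus 1, unless a ratio between sites is named. That scale makes the ratio of a low gene smaller than the ratio of its FPKM. A gene was counted as past the fold when its absolute log2 ratio was at least 1. Over all genes, 0.696% were past the fold above the lesion and 1.47% below it. Each count of a gene list is to be read beside these shares.

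SYNJ1, the gene that the genotype lowers, was higher in the heterozygous-labelled group at both sites, with an FPKM of 1904 against 2403 above the lesion and 1846 against 2592 below it. Its log2 ratios of 0.34 and 0.49 run against the labels, so each direction below is given for the labels as they stand. The group values of APOE were 766 and 548 above the lesion and 476 and 563 below it, in the order homozygous-labelled and heterozygous-labelled. The mice carry human ApoE4 while the reads were aligned to the mouse genome. How far the APOE values reflect the human transcript was not tested. Markers of the cord were high in all 4 groups, with an FPKM of at least 8484 for the astrocyte gene GFAP and at least 5238 for the neuronal gene SNAP25.

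H19 and IGF2 are neighbors on chromosome 7 of GRCm38. H19 runs on the minus strand from 142575529 to 142578143 and is annotated as a lincRNA. IGF2 runs on the same strand from 142650766 to 142666816, and its start lies 88.7 kb upstream of that of H19. The annotated exons of H19 hold miR-675 and an intron of IGF2 holds miR-483, and since both would be transcribed with their hosts, their mature sequences from RefSeq (GRCm38.p6) are shown, with the seed (bases 2 to 8) in capitals. No seed is shared among these 4 sequences. Mature miRNAs were not analysed here.
mmu-miR-675-5p: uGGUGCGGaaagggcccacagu
mmu-miR-675-3p: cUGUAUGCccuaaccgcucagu
mmu-miR-483-5p: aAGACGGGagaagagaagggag
mmu-miR-483-3p: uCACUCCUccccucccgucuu

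H19 was high in a single group. Its FPKM was 3.17 in the homozygous-labelled group and 4.08 in the heterozygous-labelled group above the lesion. Below it, H19 stood at 45.6 and 3.34. The homozygous-labelled group below the lesion thus stood apart from the other 3, which lay close together near the bottom of the table. In that group H19 reached percentile 59.7 of all gene levels, against percentiles from 6.25 to 8.80 in the other 3 groups. The log2 ratio of genotype was 0.28 above the lesion and -3.42 below it, which is 10.7-fold lower in the heterozygous-labelled group. Of the 12336 genes with a single entry below the lesion, H19 had the lowest ratio.

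IGF2 followed the same order below the lesion but kept a difference between the sites in both genotypes. Its FPKM was 89.4 in the homozygous-labelled group and 62.1 in the heterozygous-labelled group above the lesion, and 904 and 305 below it. Both groups below the lesion were higher than both groups above it, and the heterozygous-labelled group was the lower of the pair at each site. The log2 ratios of genotype were -0.52 above and -1.56 below, the latter being 2.95-fold lower and rank 51 from the lowest of all genes there. With 904 FPKM, IGF2 was among the most abundant mRNAs of the homozygous-labelled cord below the lesion, at rank 206 of 12336 genes.

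**Figure D1:**
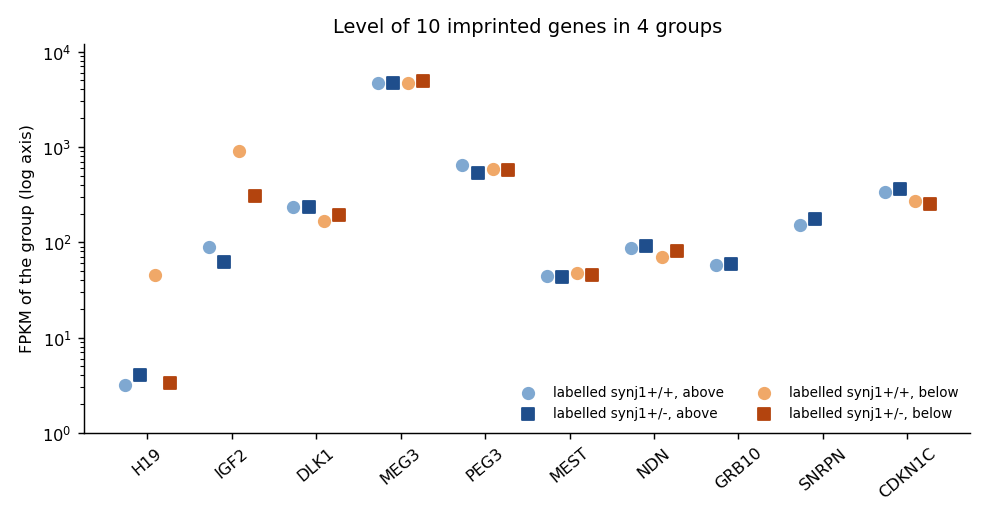
FPKM (log axis) of the 10 imprinted genes in the 4 groups, each point being the authors' combined value of 3 libraries, so no error bar can be drawn; GRB10 and SNRPN have points above the lesion only. H19 stands out at 45.6 and IGF2 at 904 in the homozygous-labelled group below the lesion, while the points of the other genes lie close together.

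H19 and IGF2 were the 2 of 8 listed members past the fold below the lesion, both lower, where 1.47% of all genes were past it and 1.30% were lower. Above the lesion 0 of 10 were, against 0.696% of all genes past the fold and 0.564% lower. The log2 ratio below minus that above was -3.71 for H19 and -1.04 for IGF2, so that 2 of 8 members had a difference of at least 1, against 1.35% of all genes in either direction and 0.915% in the same direction. H19 had the lowest such difference of the 12023 genes listed at both sites. The values that led to the choice of H19 come from this same contrast, so nothing is read from these counts. The median log2 ratio of the members was 0.02 above and -0.03 below the lesion, beside medians of -0.0039 and 0.01 over all genes of each site. For the 8 members other than H19 and IGF2 the ratios ran from -0.27 to 0.21 above the lesion, and for the 6 of them listed below from -0.09 to 0.23.

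The sites were then set side by side within each genotype. The sample titles do not state whether both sites came from the same mice, so the groups of a genotype may not be independent. The authors normalized the libraries of each site separately, and the ratio of below over above had a median over 12023 genes of -0.00083 in the homozygous-labelled group and 0.02 in the heterozygous-labelled group. In the homozygous-labelled group the log2 ratio of below over above was 3.48 for H19 and 3.32 for IGF2, or 11.2-fold and 10.0-fold higher below the lesion. These were the 2 of 8 members past the fold there, where 1.17% of genes were, and 0.990% of genes were higher below the lesion. The ratio of H19 here uses the same high value below the lesion as the contrast by which the list was partly chosen, so nothing is read from this count either. In the heterozygous-labelled group the ratio of IGF2 was 2.28, or 4.85-fold, and that of H19 was -0.23, so that 1 of 8 members was past the fold against 0.433% of genes in either direction and 0.316% higher below the lesion. IGF2 had rank 4 from the highest among all site ratios of that group. This ratio uses a value from the comparison by which members were in part chosen, so nothing is read from the count or rank. The other 6 members listed at both sites had site ratios from -0.48 (DLK1) to 0.09 (MEST) in the homozygous-labelled group and from -0.53 (CDKN1C) to 0.11 (PEG3) in the heterozygous-labelled group.

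**Figure D2:**
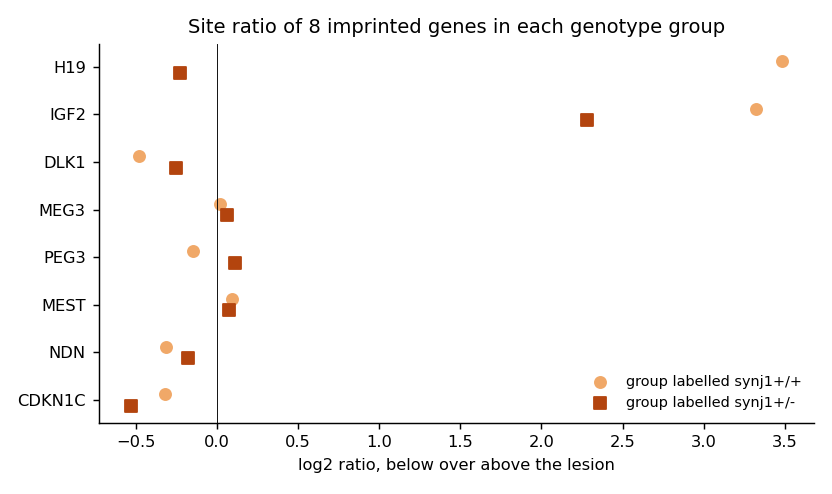
Log2 ratio of below over above the lesion for the 8 imprinted genes listed at both sites, in the homozygous-labelled group (circles) and the heterozygous-labelled group (squares); each point is a ratio of group values without an error. IGF2 lies to the right in both groups, at 3.32 and 2.28, and H19 in the homozygous-labelled group only, at 3.48 against -0.23.

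The level of H19 relative to that of IGF2 therefore differed between the groups. Per unit of transcript length, H19 amounted to 3.55% of IGF2 in the homozygous-labelled group and 6.56% in the heterozygous-labelled group above the lesion. Below it the figures were 5.04% and 1.09%, the lowest being that of the heterozygous-labelled group. The corresponding pair of chromosome 12, DLK1 and MEG3, differed less: DLK1 amounted to 5.09% and 4.96% of MEG3 above the lesion and to 3.59% and 3.99% below it. The start of MEG3 lies 88.2 kb from that of DLK1, close to the distance between H19 and IGF2.

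All annotated genes that start within 500 kb of H19 were then examined. Of 55 such genes, 9 were listed at either site. Below the lesion 2 of 7 were past the fold, where 1.47% of all genes were. They were IGF2, itself a member of the group, and LSP1. LSP1 is a leukocyte actin-binding protein that starts 117 kb downstream of H19. The FPKM of LSP1 was 75.7 and 45.3 above the lesion and 148 and 67.0 below it, in the order homozygous-labelled and heterozygous-labelled, which gives log2 ratios of -0.73 and -1.13. MRPL23, a protein of the mitochondrial ribosome that lies between H19 and LSP1, had ratios of -0.09 and 0.09. The phosphatase gene DUSP8 had ratios of 0.07 and 0.30, and the tetraspanin CD81, which lies toward CDKN1C, had ratios of -0.09 and -0.20. TSPAN32, a tetraspanin of blood cells listed below the lesion only, had a ratio of -0.88, and TNNI2 (-0.79), a troponin of fast muscle, and TSSC4 (-0.31) were listed above the lesion only. An entry at a single site may rest on the higher group alone, so nothing is read from the direction of these genes. The non-coding transcript R74862 had ratios of -0.44 and -0.01. In order along the chromosome, the ratios below the lesion were 0.30 (DUSP8), -1.13 (LSP1), 0.09 (MRPL23) and -3.42 (H19). Then came -1.56 (IGF2), -0.88 (TSPAN32), -0.20 (CD81) and -0.01 (R74862). The window of IGF2 added a single listed gene, TRPM5, with a ratio of -0.29 above the lesion.

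**Figure D3:**
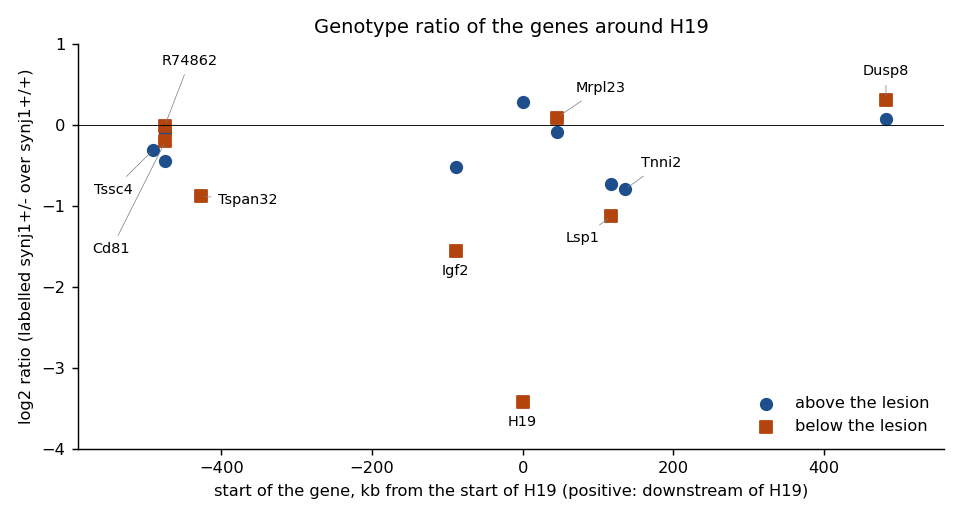
Log2 ratio of the heterozygous-labelled group over the homozygous-labelled group for the listed genes that start within 500 kb of H19, placed by the distance of their start from that of H19 in the direction of transcription of H19, above (circles) and below (squares) the lesion. H19 at -3.42, Igf2 at -1.56 and Lsp1 at -1.13 lie lowest below the lesion, and Mrpl23, between H19 and Lsp1, lies at 0.09.

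The remaining members classed as paternally expressed were mostly abundant and differed little between the groups. DLK1, a membrane protein related to NOTCH ligands, had an FPKM of 235 and 232 above the lesion and 169 and 195 below it, in the order homozygous-labelled and heterozygous-labelled. Its values below the lesion were lower than those above it in both genotypes. PEG3, a zinc finger protein involved in cell death and maternal behavior, had 641 and 530 above and 580 and 572 below. Its log2 ratio above the lesion, -0.27, was the lowest of the members apart from IGF2, and its ratio below was -0.02. MEST, which encodes a hydrolase-like protein of the endoplasmic reticulum, lay between 43.0 and 47.1 in all 4 groups. NDN (necdin), a MAGE family protein of postmitotic neurons, had 86.2 and 92.3 above and 69.2 and 81.5 below, a ratio of 0.23 below the lesion that was the highest of the members there. SNRPN, a protein of the spliceosome expressed in neurons, had 153 and 177 above the lesion, a log2 ratio of 0.21.

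Among the members classed as maternally expressed, MEG3 was by far the most abundant. The class of a gene can differ between tissues, as for GRB10, and the allele in use in the cord was not measured. This non-coding RNA had an FPKM of 4624 and 4687 above the lesion and 4692 and 4888 below it, ranks from 12 to 17 of all genes, and its log2 ratios were 0.02 and 0.06. CDKN1C (p57) had 337 and 365 above and 270 and 253 below, so that both values below the lesion were lower than both above, with genotype ratios of 0.12 and -0.09. GRB10, an adaptor that inhibits signaling from the insulin and IGF1 receptors, had 57.6 and 58.5 above the lesion, a ratio of 0.02. CDKN1C starts 883 kb from H19 on the same chromosome, outside the window used above. Within 500 kb of CDKN1C, 0 of 10 genes listed below the lesion were past the fold, with ratios from -0.88 to 0.28.

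Of the other imprinted genes, 36 of a list of 54 were present in the table, 34 at each site. Above the lesion 0 of 34 were past the fold and 17 had a ratio over 0, with a median of -0.01. The lowest ratio there was that of ATP10A, a phospholipid flippase, with an FPKM of 26.7 in the homozygous-labelled group and 16.8 in the heterozygous-labelled group, a ratio of -0.63. Below the lesion 1 of 34 was past the fold, where 1.47% of all genes were. This was TFPI2, an inhibitor of serine proteases in the extracellular matrix, which was not listed above the lesion. Its FPKM was 7.84 and 1.62, a ratio of -1.75. Its entry may rest on the higher group alone, so nothing is read from its direction or from this count. The others below the lesion ran from -0.42 (ATP10A) to 0.45 (PEG13). The median was 0.11 and 24 of 34 had a ratio over 0, beside the median of 0.01 over all genes. In the site comparison 0 of the 32 listed at both sites, which do not include TFPI2, were past the fold in either genotype group. PLAGL1, a zinc finger factor that activates several imprinted genes including IGF2 and H19, had an FPKM of 45.5 and 36.0 above and 33.8 and 33.5 below, with genotype ratios of -0.33 and -0.01.

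**Figure D4:**
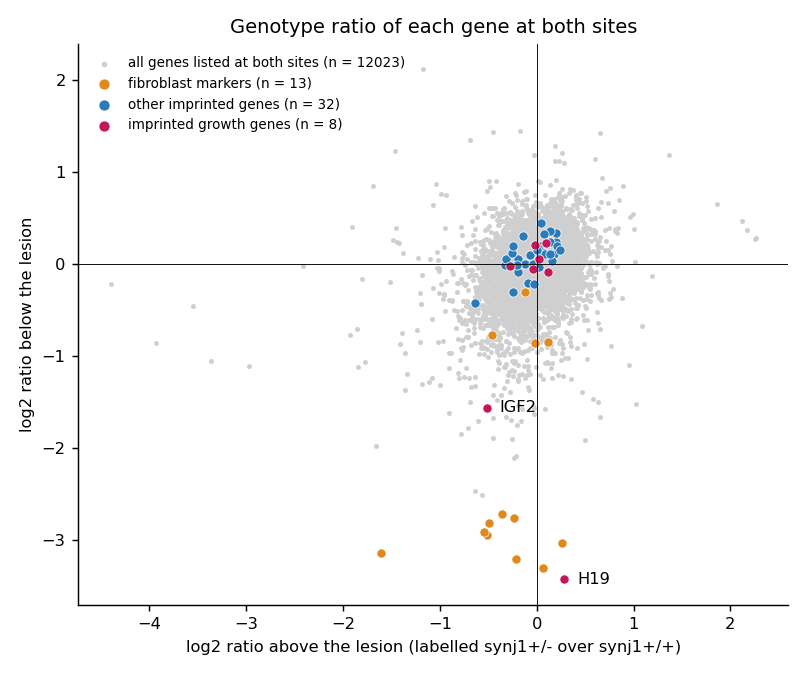
Log2 ratio of the heterozygous-labelled group over the homozygous-labelled group above (horizontal) and below (vertical) the lesion for each gene listed at both sites, without error. H19 at 0.28 and -3.42 and IGF2 at -0.52 and -1.56 lie lowest of the 8 imprinted growth genes below the lesion, and of the 32 other imprinted genes ATP10A lies lowest, at -0.63 and -0.42; TFPI2, listed below the lesion only, has no point.

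The ligands, receptors and mediators of insulin-like growth factor signaling were examined next. Above the lesion 0 of 13 listed genes were past the fold, and below it 1 of 11 was, IGF1. The shares over all genes were 0.696% above and 1.47% below. The FPKM of IGF1, the ligand made by microglia, macrophages and other cells of the injured cord, was 218 and 158 above the lesion and 532 and 198 below it, in the order homozygous-labelled and heterozygous-labelled. Its log2 ratios were -0.46 and -1.42, and as with H19 and IGF2 the highest value was that of the homozygous-labelled group below the lesion. IGF2 amounted to 41.1% and 39.2% of IGF1 above the lesion, and exceeded it 1.70-fold and 1.54-fold below. The receptor IGF1R varied between 55.7 and 65.4 FPKM over the 4 groups and the insulin receptor INSR between 26.3 and 28.4. IGF2R, itself imprinted and the receptor that clears IGF2 into lysosomes, lay between 3.77 and 4.49. The mRNA-binding protein IGF2BP3, at 4.68 and 7.81 above and 6.36 and 4.95 below, had the highest ratio of this list above the lesion, 0.63. The adaptor SHC1, with 35.7 and 32.5 above and 55.9 and 39.6 below, had the lowest ratio below the lesion after IGF1, -0.49.

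Factors that read or keep imprints showed no gene past the fold among 10 listed above and 9 below the lesion. CTCF, the insulator protein that binds between H19 and IGF2, had an FPKM of 179 and 164 above and 169 and 164 below. ZFP57 and TRIM28, which hold methylation at imprinted loci, had ratios of -0.15 and -0.01 above and 0.21 and 0.08 below. ZFP445, which acts with them, had the lowest ratio above the lesion, -0.44, and SMCHD1, a chromatin protein, the highest, 0.41. Below the lesion the lowest was the deacetylase HDAC1 with -0.25. Of the NOTCH pathway, to which DLK1 is related, 0 of 15 genes above and 0 of 16 below were past the fold. The target gene HES5 came closest, with 7.71 and 15.9 above and 8.67 and 12.8 below and ratios of 0.96 and 0.51, followed by HES1 above the lesion with 0.45 and DLL3, a ligand, below it with 0.42. Of the cyclin-dependent kinase inhibitors other than CDKN1C, 0 of 5 listed were past the fold at either site. The lowest were those of CDKN1A (p21), with 107 and 71.2 above and 83.8 and 55.2 below and ratios of -0.58 and -0.60, and of CDKN2B (p15), with ratios of -0.33 and -0.42.

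Markers of meningeal and perivascular fibroblasts, cells that make collagen matrix in the meninges and around vessels, were highest in the same group as H19 and IGF2. Several genes of this list were among those known from earlier results of these data to be lower below the lesion, so the list is no independent evidence of its direction. Below the lesion 12 of 18 listed markers were past the fold, all lower in the heterozygous-labelled group. Over all genes 1.47% were past it there and 1.30% were lower. All 18 ratios were under 0, with a median of -2.17. The 12 were the proteoglycans and matrix proteins DCN, LUM, OGN, DPT and MGP, the collagens COL1A1, COL1A2 and COL3A1, and IGFBP6, SLC6A13, SFRP4 and ISLR. SLC6A13, ALDH1A2, OGN, CRABP2 and DPT were listed below the lesion only. Their entry may rest on the higher group alone, so nothing is read from their direction. They are part of the 18 ratios and of their median, and SLC6A13, OGN and DPT are among the 12. Nothing is therefore read from those counts or that median. Of the markers listed at both sites, DCN, LUM, MGP, COL1A1, COL1A2, COL3A1, IGFBP6, SFRP4 and ISLR were past the fold. PDGFRA, FMOD, FOXC1 and PI16 were not, with ratios from -0.86 (FOXC1) to -0.31 (PDGFRA). The FPKM of DCN, a small matrix proteoglycan, was 9.60 and 6.54 above the lesion and 138 and 18.8 below it, in the order homozygous-labelled and heterozygous-labelled. Above the lesion 1 of 13 was past the fold, COL3A1 with 4.26 and 0.728, against 0.696% of all genes. The counts of the sites do not cover the same markers. The summed FPKM of the 13 markers listed at both sites was 142 and 116 above and 726 and 155 below, and none of them was at 0 in any group. The highest sum was thus that of the group in which H19 and IGF2 were highest. Much of the sums above the lesion came from PDGFRA and FMOD, which differed less between the sites. PDGFRA had 62.6 and 57.3 above and 68.3 and 55.0 below, and FMOD 31.3 and 22.5 above and 38.3 and 22.0 below. The part of these cells in the values of H19 and IGF2 was not tested, and in bulk tissue fewer cells of a type cannot be told apart from less RNA per cell.

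In the heterozygous-labelled group the pattern of H19 and IGF2 across the sites bracketed that of these markers. The median log2 ratio of below over above was 3.41 for the 13 markers in the homozygous-labelled group, next to 3.48 for H19 and 3.32 for IGF2. H19 and several markers were chosen with their low genotype ratios below the lesion known, so nothing is read from this nearness. In the heterozygous-labelled group the median of the markers was 0.66, with a range from -0.06 to 2.19. H19 at -0.23 lay under that range and IGF2 at 2.28 over it.

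Markers of the other cells of the cord gave ratios closer to 0 below the lesion. Of 12 microglia and macrophage markers listed below the lesion 1 was past the fold, LYZ2, where 1.47% of all genes were. The FPKM of LYZ2 was 380 and 234 above and 1100.2 and 464 below. The median of the list was -0.64 below and -0.41 above. Above the lesion its largest ratios were those of LYZ2 and the complement gene C1QC, -0.70 and -0.65. The summed FPKM of the 11 listed at both sites was 2528 and 1742 above and 4100 and 2393 below, again highest in the homozygous-labelled group below the lesion. Pericyte and smooth muscle markers had a median of -0.16 below and 0.20 above, and endothelial markers -0.14 and 0.07, with 0 genes past the fold in either list at either site. The largest were those of PDGFRB (-0.49) and ACTA2 (-0.39) and of CDH5 (-0.61) and TEK (-0.21) below the lesion, and of ACTA2 (0.48) and RGS5 (0.28) and of KDR (0.54) and VWF (-0.27) above it. Neuron markers had a median of 0.22 below and 0.08 above, and astrocyte markers -0.17 and -0.21, with 0 genes past the fold in either list. The synaptic genes SYT1 and SLC32A1 had ratios of 0.54 and 0.45 below the lesion, RBFOX3 and SNAP25 had 0.26 and 0.25 above it, and the astrocyte genes GFAP and AQP4 lay between -0.40 and -0.29 at both sites. The part of these cells in the values of the imprinted genes was not tested.

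**Figure D5:**
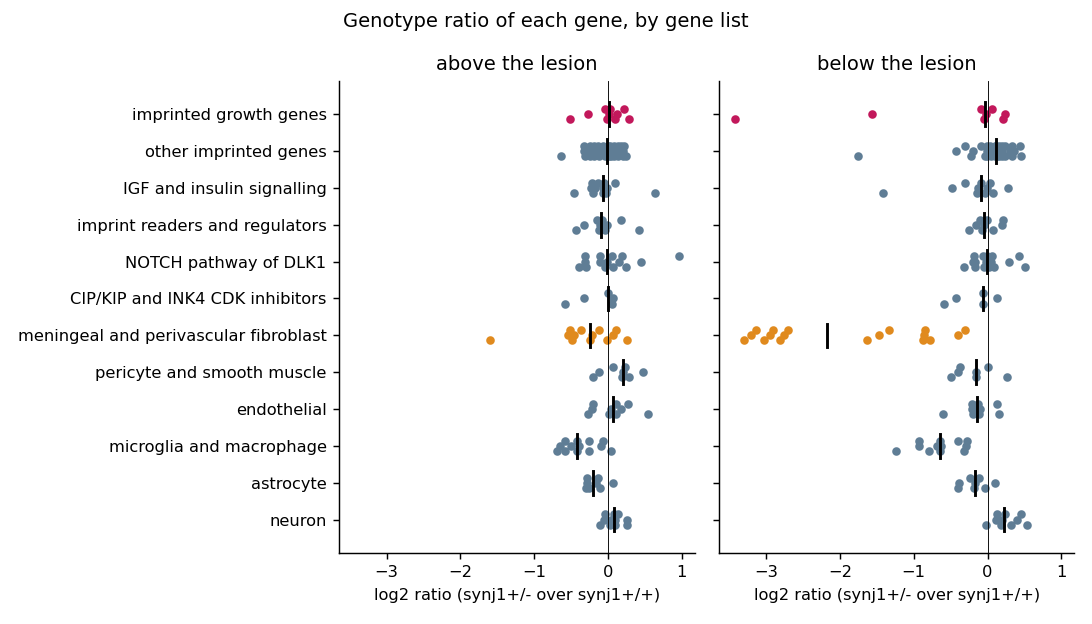
Log2 ratio of the heterozygous-labelled group over the homozygous-labelled group for each listed gene of 12 gene lists, above (left) and below (right) the lesion; the black bar is the median of the list and points have no error. Below the lesion the fibroblast markers, some of them listed at that site only, have a median of -2.17. Of the imprinted growth genes there, H19 at -3.42 and IGF2 at -1.56 lie apart from the other 6.

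The genes most like H19 and IGF2 were found by the distance between the pairs of genotype ratios, above and below, over 12023 genes listed at both sites; this is a likeness over 4 group values only. Closest to H19 were SFRP4 (distance 0.26 in log2 units), a secreted WNT inhibitor, IGFBP6 (0.40), which binds IGF2 in preference to IGF1, MGP (0.55), ISLR (0.85) and LUM (0.93), all 5 of them on the fibroblast list. H19 and several genes of that list were chosen with their low ratios in this contrast known, so nothing is read from this overlap. The FPKM of SFRP4 was 1.46 and 1.57 above the lesion and 29.2 and 2.08 below it, close to the order of H19. That of IGFBP6 was 1.43 and 1.90 above and 28.6 and 2.63 below. Closest to IGF2 were SERPINH1 (0.13), the collagen chaperone, MFAP2 (0.14), a protein of microfibrils, IGF1 (0.16), HSPB11 (0.17) and SPRR1A (0.18). Of these, SERPINH1 (405 FPKM), MFAP2 (43.7) and IGF1 were highest in the homozygous-labelled group below the lesion, as IGF2 was. HSPB11 and SPRR1A, an injury-induced protein of regrowing axons, were highest in the homozygous-labelled group above the lesion, at 21.6 and 82.9.

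RefSeq promoter windows of 300 bases were matched for 8 of the 10 members; H19 and CDKN1C had none. IGF2 has 4 windows, and the most downstream of them, at chr7:142657447-142657746 on the minus strand of GRCm38.p6, is shown because IGF2 is the member with a promoter window that differed most between the groups. The capitals mark the letters ATAAAA and GGGCGG, the latter being the GC box that SP1 binds, searched on both strands. This window holds the most of them, 1 ATAAAA and 2 GGGCGG. The other windows of IGF2 hold no ATAAAA, and 0, 0 and 1 GGGCGG.
Igf2 promoter window: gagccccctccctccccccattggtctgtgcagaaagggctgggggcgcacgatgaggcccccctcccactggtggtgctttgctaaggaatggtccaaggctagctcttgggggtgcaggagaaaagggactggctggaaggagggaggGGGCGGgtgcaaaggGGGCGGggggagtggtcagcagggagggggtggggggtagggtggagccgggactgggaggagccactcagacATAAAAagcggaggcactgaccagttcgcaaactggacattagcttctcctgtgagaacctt
ATAAAA was found in 18.5% and GGGCGG in 35.7% of all 32851 windows. The palindrome GGGGCCCC, which PLAGL1 can bind, was found in 1.08% of all windows and, among those of the members, in that of PEG3. TATAAA was found in 13.6% of all windows, and among the members in those of MEG3 and SNRPN. These matches are a description of the letters and not of binding.

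Some members share sequence with other annotated genes. The libraries were made with a kit that does not mark strand, so reads of IGF2 and its antisense transcript Igf2os, or of MEST and the overlapping COPG2, cannot be told apart where their exons overlap. SNRPN shares exons with Snurf. The exons of IGF2 also overlap those of Gm49394 on the same strand, and how the authors divided such reads is not given in the sources used here.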

How the data were processed

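RNA of 12 libraries was analysed as a table of 4 groups of 3 libraries. Per the labels and methods, the authors reduced the reads of a site to the smallest library of that site, aligned them with STAR 2.5.4b to GRCm38.p6 and obtained group values with Cuffdiff 1.3.0 and upper quartile normalization; the annotation is not given in the sources used here. The deposited values were read as FPKM plus 1, since 19 values equal exactly 1 and the next is 1.10. With 0 columns for single libraries, no test or error of its own could be computed here, and no depth per library. The table also holds the p-values, q-values and fold changes of the authors' own comparisons, as does a shorter list; these were left out by choice.

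Log2 ratios were computed on FPKM plus 1 over 13647 entries above and 12338 below the lesion; 3 symbols with a repeated entry at a site were left out where genes were matched by symbol. Named are all members, SYNJ1 and APOE, genes of each list past an absolute log2 ratio of 1 (otherwise the 2 largest), genes within 500 kb of H19 and IGF2, and the 5 genes closest to each; genes named besides were chosen after their values were seen. Members and lists were chosen with earlier results of these data known. Positions are from GENCODE M21. Pseudocounts of 0.1 and 10, a mean of at least 1 FPKM, median centring and a threshold of 0.5 were tried. Ratios of known size were set without noise into the group values by the same formula and were returned, which checks the arithmetic only. Python 3.11.15, numpy 2.4.6, pandas 2.3.3 and matplotlib 3.10.9 were used. A gene of the Schwann cell list is not reported here.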

Additional observations from a re-analysis of the deposited data

How the results depend on the processing

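The 2 members past the fold below the lesion, H19 and IGF2, were past it under all 5 alternatives. Above the lesion a threshold of 0.5 gave 1 member in place of 0 (IGF2), 1 of the other imprinted genes in place of 0 (ATP10A) and 3 fibroblast markers in place of 1. A pseudocount of 10 left 0 fibroblast markers past the fold above and 0 of the other imprinted genes below the lesion, where each count had been 1, since COL3A1 and TFPI2 have low FPKM. The fibroblast count below the lesion ranged from 9 to 16 around 12. Of 54 ratios of single members under 3 alternatives, 53 moved by less than 1.5-fold. The other was H19 below the lesion, at -2.06 with a pseudocount of 10. With a pseudocount of 0.1 the counts of all genes past the fold were 163 above and 272 below in place of 95 and 181, with a pseudocount of 10 they were 25 and 43, and with a threshold of 0.5 they were 570 and 960. The ratios of H19 and IGF2 between the sites, centred on the median of all genes or with a pseudocount of 0.1 (both chosen after seeing the data), kept their direction; those of other genes were not run under these alternatives. No paired analysis was possible because the table holds no single libraries, and for that reason no library could be left out. The spread between mice within a group was not examined here.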

Other observations

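Further lists bear on tissue that a dissected segment can hold. Red blood cell genes had genotype ratios unlike those of H19 and IGF2. Above the lesion 5 of 5 listed genes were past the fold, all higher in the group labelled synj1+/-. Over all genes 0.696% were past it there and 0.132% were higher. HBA-A1 had an FPKM of 103 and 468, and the median log2 ratio of the list was 2.17. Below the lesion 0 of 5 were past the fold, against 1.47% of all genes, with a median of 0.37. Besides HBA-A1 the list held HBA-A2, HBB-BS, HBB-BT and ALAS2, with ratios from 1.86 to 2.27 above the lesion. Between the sites, 4 of 5 were past the fold in the homozygous-labelled group, all higher below the lesion, with a median of 1.30. Over all genes 1.17% were past it and 0.990% were higher. In the heterozygous-labelled group 0 of 5 were, against 0.433% of all genes, with a median of -0.51. H19 too was higher below the lesion in the homozygous-labelled group only. The paired globin genes are near-identical, and how reads were divided between them is uncertain. Of Schwann cell markers, 1 of 4 below the lesion was past the fold, EGR2, against 1.47% of all genes. EGR2, a transcription factor of myelinating Schwann cells that macrophages also express, had 41.4 and 16.8 and a ratio of -1.25. Above the lesion 0 of 3 were past the fold, with NCMAP at 0.88 and PMP22 at -0.15. Of bone and cartilage genes, 0 of 4 were past the fold at either site; SP7 had a ratio of 0.31 above, HAPLN1 a ratio of 0.34 below, and ALPL ratios of 0.22 and 0.29. Of skeletal muscle genes, ACTA1 and MYLPF were listed below the lesion only, with ratios of -0.27 and 0.52.

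Of 4 oligodendrocyte markers listed at each site, 0 were past the fold, with MOG at -0.18 above and 0.17 below, CLDN11 at -0.24 and -0.13 and OPALIN at 0.23 and 0.14. Proliferation genes, 5 listed at each site, had 0 past the fold and medians of -0.07 above and -0.28 below. The lowest was CDK1, listed below the lesion only, with a ratio of -0.61, and nothing is read from its direction. MCM2 had 0.42 below the lesion, and above it BIRC5 and TOP2A had -0.34 and -0.30.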
